A study of Mus musculus with 6 samples.

Results

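The genes described here are 50 mouse interferon-stimulated genes, meaning genes whose transcription is known to be raised by interferons. They were chosen by name, matched by the Ensembl identifier that each row of the deposited tables carries, and followed through all 6 libraries of the series. A value was found in at least 1 library for 44 of the 50 genes, among 15441 genes with a value in the whole series, and 29 of the 44 were listed in every library. The study used photothrombosis, in which the dye Rose Bengal, injected into male C57BL/6J mice 6 to 8 weeks old, is activated by cold light through the skull so that cortical vessels clot. The groups were sham-operated mice, which were not illuminated and whose cortex was taken at day 7 after the operation, and mice taken 1, 3, 7, 14 or 28 days after the stroke. For each group, RNA of the whole ipsilateral cortex of 3 mice was pooled into 1 strand-specific poly(A) library, read in pairs of 150 bases with 33.6 M reads per sample as the stated mean depth. The depth of each library is not given in the sources used here. Since each group is 1 library, no difference below has a replicate error or a test, and all 5 comparisons with sham share the same sham library.

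Type I interferons signal through the receptor Ifnar1 and Ifnar2, the kinases Jak1 and Tyk2, and a complex with Stat2 and Irf9, which binds the interferon-stimulated response element in the promoters of its target genes. Interferon gamma signals through Ifngr1 and Ifngr2 and acts on genes with the gamma-activated site. The products of the target genes sense foreign or misplaced nucleic acids, block virus replication, present antigens and feed back on the pathway, and in the brain microglia, astrocytes, endothelial cells and infiltrating leukocytes are all known to express them.

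Promoter sequence was examined first, because the response element is a known feature of many interferon-stimulated genes. RefSeq promoter windows on GRCm38.p6, from 250 bases before to 50 bases after the start, were found for 37 of the 50 genes. The element was searched on both strands as GAAA, then any 2 bases, then GAAA, which on the other strand reads TTTC, any 2 bases, TTTC. At least 1 match was present in 22 of the 37 genes (59.5%), against 3.99% of all 27025 genes with a window. In 9 of the 37 (24.3%) a single window held 2 or more matches, against 0.266% of all genes. Trim30a, with 2 matches over its 2 windows, is not among the 9. Per window, the share was 53.5% of 43 windows against 3.44% of all 32851. The gamma-activated site, searched as TTCNNNGAA, which reads the same on both strands, was matched in 11 of the 37 genes (29.7%), against 9.55% of all genes and 8.3% of all windows. Matches to both patterns stood in 8 of the 37 genes. The following stretches of 9 promoters lie wholly before the annotated start, are written in the direction of the gene, and have the matches to the response element in capitals. They were chosen only among windows that hold a match. They belong to genes whose levels carry results below, or, for Isg15 and Igtp, to genes for which no value of their own was found. Other genes whose levels carry results below, Oasl2, Irf7, Slfn2, Lgals3bp and Xaf1, had a window without a match to the response element.
Isg15: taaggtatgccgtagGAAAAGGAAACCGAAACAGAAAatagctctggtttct
Bst2: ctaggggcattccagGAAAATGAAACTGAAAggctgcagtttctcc
Oas1a: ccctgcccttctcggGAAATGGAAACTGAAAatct
Ifit1: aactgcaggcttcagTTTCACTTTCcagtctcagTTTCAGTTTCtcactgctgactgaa
Ifit3: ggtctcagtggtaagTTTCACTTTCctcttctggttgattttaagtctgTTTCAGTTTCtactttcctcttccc
Ifit3b: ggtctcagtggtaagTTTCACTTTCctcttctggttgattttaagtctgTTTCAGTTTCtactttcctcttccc
Gbp2: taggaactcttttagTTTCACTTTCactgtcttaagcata
Igtp: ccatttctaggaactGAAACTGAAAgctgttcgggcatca
Irgm2: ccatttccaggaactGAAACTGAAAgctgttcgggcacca
These stretches lie at chr4:156200860-156200911 on the minus strand for Isg15, chr8:71537572-71537617 on the minus strand for Bst2, chr5:120907526-120907560 on the minus strand for Oas1a, chr19:34640770-34640828 on the plus strand for Ifit1, chr19:34583358-34583431 on the plus strand for Ifit3. The others lie at chr19:34607754-34607827 on the plus strand for Ifit3b, chr3:142620589-142620628 on the plus strand for Gbp2, chr11:58199507-58199546 on the plus strand for Igtp and chr11:58214898-58214937 on the plus strand for Irgm2. In Isg15 the capitals are 3 matches in a row on the gene's own strand, each sharing its last GAAA with the next. In Bst2 and Oas1a a pair of matches overlaps in the same way. Ifit3 and Ifit3b, neighbouring genes of 1 family, have the same 74 bases in this stretch, and over 218 aligned bases before the start 188 (86.2%) were equal. Igtp and Irgm2 each had 1 match to the response element preceded by 1 to the gamma-activated site, beginning at positions -34 and -45 from the start in Igtp and at -64 and -75 in Irgm2, with 134 of 220 aligned bases (60.9%) equal. By role, matches to the response element were present in 7 of the 7 interferon-inducible GTPase genes and 6 of the 7 nucleic acid sensor genes with a window, and in none of 5 in the group of other interferon-induced genes (0 of 5). Genes without a window were Dhx58, Zbp1, Oas2, Ifi204, Usp18, Mx1, Mx2, Gbp6, Iigp1, Parp9, Parp14, Ifi27l2a and Rtp4. For the 30 genes with both a window and a listed transcript start on the same strand, the nearest listed start lay at most 100 bases from the RefSeq start in 27 and at a median distance of 4.5 bases. Igtp is counted here by a start listed under Irgm2, and a gene with 2 windows by the smaller distance.

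The deposited values are FPKM, fragment counts scaled by transcript length and by the mapped reads of the library, of transcript starts, transcript ends and splicing events, with events at 0 left out. Levels are in FPKM throughout. The value of a gene is the largest of its summed starts, its summed ends and any single event. Changes are given as log2((FPKM + 0.1)/(sham FPKM + 0.1)), and a gene is called higher or lower where this log2 ratio is at least 1 in size and 1 of the 2 libraries reaches 1 FPKM. Where a sham value is followed by values over the days, these are the levels at day 1, day 3, day 7, day 14 and day 28 in that order, and "none" stands for a library in which the gene was not listed. A gene not listed in a library counts as 0 in the counts and medians, and no ratio is printed for it. Before any result, 2 libraries differed from the rest in ways that touch every gene. The day 14 library had the fewest events with an identifier, 82719 against 91378 in sham and 98292 at day 7, and 25.3% of all 15441 genes had their highest value in it. The day 1 and day 14 libraries also had ratios that moved with transcript length. In the quintile of genes with the shortest transcripts the median log2 ratio to sham was 0.16 at day 1 and 0.41 at day 14, and in the quintile with the longest it was -0.16 and -0.24, while at day 3, 7 and 28 all such medians lay between -0.02 and 0.09. Of the 44 genes 3 are in the longest quintile and 5 in the shortest.

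Most of the interferon-stimulated genes were at their highest in the cortex at day 7 and day 14 after stroke and back near the sham level at day 28. Summed over the 44 genes, the FPKM was 53.7 in sham and then 69.5, 118, 199, 224 and 71.4 over the days. Against sham, 6, 19, 33, 33 and 4 genes were higher over the 5 days, and none was lower at any of them (0 of 50). Of the 50 genes 24, 31, 39, 39 and 26 could be compared over the days, since the others were below 1 FPKM in both libraries or had no value. Of all genes compared, 5.11%, 8.54%, 8.53%, 8.97% and 3.68% were higher over the days, and 4.48%, 2.53%, 2.12%, 6.92% and 2.79% were lower. The median log2 ratio over all 44 genes with a value was 0.21, 1.04, 1.83, 2.32 and 0.32 over the days. With a pseudocount of 1 it was 1.12 at day 7 and 1.16 at day 14, and 2 genes were higher at day 1 and 10 at day 3. The same median over all 15441 genes, with the pseudocount of 0.1, was 0.00, 0.00, 0.02, 0.04 and 0.00. Without the filter of 1 FPKM, 11 genes were higher at day 1 and 9 at day 28, and from start sums alone 4 were lower at day 14. Some genes counted as higher were not listed in sham. Among genes listed in both libraries, 15 were higher at day 3, 25 at day 7 and 24 at day 14. In whole cortex, more cells that express a gene and more RNA of it per cell cannot be told apart.

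**Figure D1:**
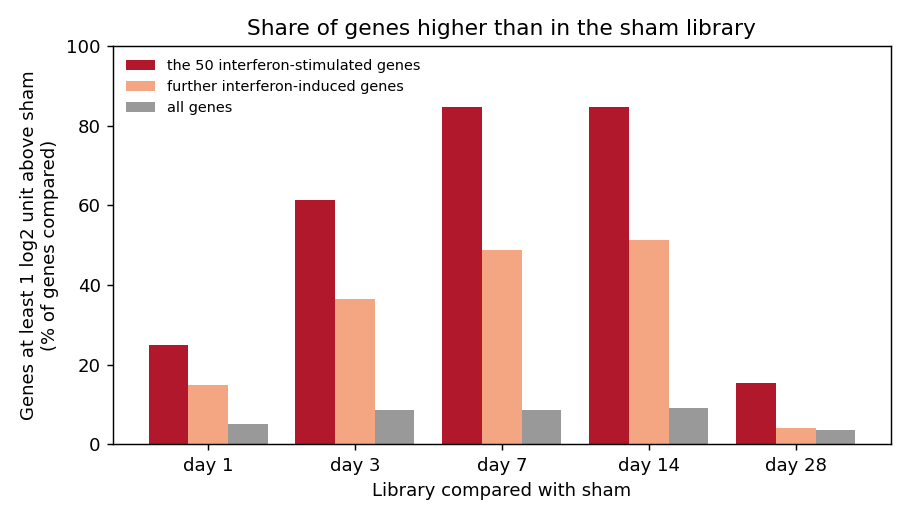
Percentage of compared genes at least 1 log2 unit above the sham library, for each library after stroke (horizontal axis) and for 3 groups of genes (bar colours); each bar compares 1 library with the sham library. The interferon-stimulated genes reach 84.6% of those compared at day 7 and at day 14, while all genes stay between 3.68% and 8.97%.

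Across the 5 days, 36 of the 50 genes were higher than sham at 1 day or more, and 34 were without the day 14 library. Gbp2 and Ifi27l2a were higher at all 5 days. Slfn2, Irgm1 and Rtp4 were higher at 4. At no day higher were Ifih1, Ddx58, Oas2, Irf9, Isg15, Ifit2, Cmpk2 and Ifi44, besides the 6 genes without a value. The highest value of 26 of the 44 genes stood in the day 14 library, of 14 at day 7, of 3 at day 3 and of 1 at day 28. No gene had it in sham or at day 1 (0). After the length trend was removed, 20 genes were highest at day 7 and 20 at day 14. Of all genes, 25.3% had their highest value at day 14 and 15.5% at day 7. Without the day 14 library, 34 of the 44 genes were highest at day 7, 5 at day 3 and 1 each in sham, at day 1 and at day 28, while Isg15 and Ifi44 had no value outside it. The day 28 library, put in place of sham after the values were seen, gave 27 genes higher and 0 lower at day 7, with 7.83% of all genes higher and 2.63% lower. At day 14 it gave 29 genes higher and 1 lower, with 7.88% of all genes higher and 6.94% lower, and the 1 lower gene was Ifih1, which was not listed at day 14.

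From day 7 to day 14, when the summed level moved little, 3 genes were higher (Zbp1, Mx1 and Gbp5) and 3 lower (Ifih1, Trim25 and Iigp1) of 41 compared, beside 4.17% of all genes higher and 8.52% lower. From start sums alone, 2 were higher and 11 lower. The median log2 ratio of day 14 to day 7 was 0.22 over the 44 genes and 0.00 over all genes. It was -0.05 after the length trend was removed and 0 from start sums alone, so its direction depends on these choices. Of the 3 lower genes, Ifih1 and Iigp1 were not listed at day 14, and among genes listed in both libraries 1 was lower.

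**Figure D2:**
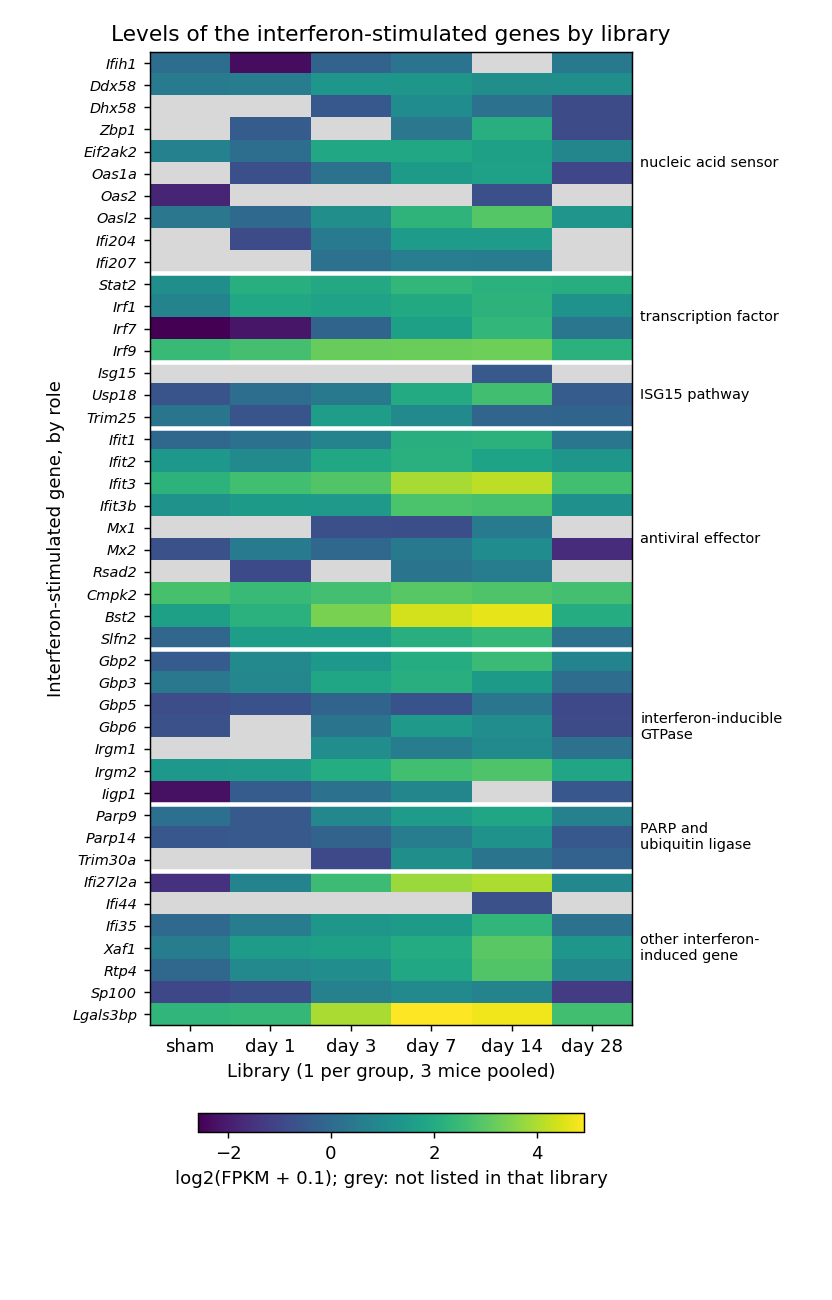
Level of each of the 44 genes with a value (rows, grouped by role) in each of the 6 libraries (columns), as log2(FPKM + 0.1) by colour; grey marks a gene not listed in that library. The day 7 and day 14 columns are brightest in most rows, and grey cells are fewest there.

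The nucleic acid sensors recognise double-stranded or misplaced RNA and DNA in the cytosol. Of 11 such genes 10 had a value, and 0, 4, 7, 6 and 0 of the 3, 6, 9, 8 and 4 compared were higher over the days. Their median log2 ratio was 2.81 at day 7 and 3.05 at day 14, from 5 genes listed in sham and 9 at each of these days. Of the sensors compared and listed in both libraries, 2 of 4 were higher at day 7 and 1 of 3 at day 14. Oasl2, an oligoadenylate synthetase-like protein on chromosome 5 (chr5:114896936-114912234), had 1.22 in sham and then 0.884, 2.07, 4.84, 7.52 and 2.43 over the days, a log2 ratio of 2.53 at day 14. This gene has 2 listed starts, and the one 2 bases from the RefSeq start went from 0.245 in sham to 4.77 at day 7 and 6.67 at day 14. Its only listed end lies inside the gene and held 0.245 FPKM in sham and 0.293 at day 14. The log2 ratio of 0.19 from end sums at day 14 therefore covers a small part of the level. Oas1a, which makes the second messenger that activates RNase L, was not listed in sham and then had 0.492, 1.09, 2.71, 3.15 and 0.4 over the days. Zbp1, which binds left-handed nucleic acids and can start necroptosis, was not listed in sham and then had 0.662, none, 1.21, 4.22 and 0.45 over the days, and stood 1.73 log2 units higher at day 14 than at day 7. Ifi204 and Ifi207, DNA-binding proteins of the interferon-inducible p200 family, were low and present mainly in the middle of the series. Ifi204 was not listed in sham and then had 0.443, 1.3, 2.8, 2.78 and none over the days, and Ifi207 was not listed in sham and then had none, 1.08, 1.43, 1.4 and none over the days. Both belong to a cluster of near copies on chromosome 1, so reads may have been divided among them.

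The sensors of the RIG-I family behaved less alike. Dhx58, the regulatory member LGP2, was not listed in sham and then had none, 0.595, 1.97, 1.09 and 0.463 over the days. Ddx58, which encodes RIG-I itself, was 1.29 in sham and then 1.4, 2.45, 2.52, 2.07 and 2.13 over the days, below the threshold at every day, with its largest log2 ratio of 0.91 at day 7. Its only listed start, at the RefSeq start, held 0.474 FPKM in sham, 2.15 at day 3 and 2.06 at day 7. From this start alone Ddx58 passed the threshold at day 3 and day 7, and the start was not listed in the other libraries. Ifih1, which encodes MDA5, was 0.982 in sham and then 0.0981, 0.77, 1.11, none and 1.27 over the days, and was below 1 FPKM in both the sham and the day 1 library, so it was not compared at day 1. Eif2ak2, the kinase PKR that stops translation on double-stranded RNA, was 1.54 in sham and then 0.988, 3.65, 3.59, 3.09 and 1.72 over the days, and was higher at day 3 and day 7 with log2 ratios of 1.19 and 1.17. Oas2 was 0.187 in sham and then none, none, none, 0.489 and none over the days, under 1 FPKM throughout. No value was listed for Oas3.

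Among the 4 transcription factors, 1, 0, 3, 3 and 1 of the 3, 3, 4, 4 and 4 compared were higher over the days. All 4 were listed in every library, with a median log2 ratio of 1.20 at day 7 and 1.25 at day 14. Irf7, the factor that amplifies type I interferon production, had the largest log2 ratios of the 4, 2.43, 4.26, 4.97 and 2.94 from day 3 to day 28, from a sham level of 0.0669 FPKM that is below the pseudocount. In all, 3 starts made up this level, and they did not move together. The start 3 bases from the RefSeq start, at 141266421 on chromosome 7, was listed on day 3 (0.735 FPKM), day 7 (2.39) and day 14 (4.999) alone. At day 28 the level came from the 2 other starts, 0.861 FPKM from the one farthest into the gene and 0.322 from the other. The latter, at 141266481, also lies near the RefSeq start, just before it, and was listed at every day after stroke (0.129 FPKM at day 1). The transcripts that made up the level of Irf7 at day 14 and at day 28 therefore differed in their starts.

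Stat2, part of the complex that binds the response element, was 2.13 in sham and then 4.27, 3.74, 5.16, 4.53 and 4.15 over the days, with log2 ratios of 1.24 at day 7 and 1.06 at day 14. At day 14 it was close to the threshold, 0.96 after median scaling of the libraries and 0.82 with a pseudocount of 1. Its end listed in sham and at day 14 held only 0.00398 and 0.00746 FPKM. The end sum ratio of 0.05 is therefore set by the pseudocount and does not describe Stat2. Irf1, a factor induced by both interferon types, was 1.65 in sham and then 3.6, 3.23, 3.82, 4.67 and 2.32 over the days, with its largest log2 ratio of 1.45 at day 14, and was already higher at day 1 (1.08). Irf9 was 5.54 in sham and then 6.42, 8.93, 9.24, 9.54 and 4.53 over the days, and was called at no day. Part of this level comes from outside the gene. The annotated span of Irf9 is chr14:55603571-55610030, but transcripts assigned to it also start at 55591708 and 55598385, before the gene. From events inside the span alone, Irf9 was 2.1 in sham and then 3.06, 5.14, 4.76, 5.95 and 3.34 over the days. The start at 55591708 alone held 3.35 FPKM in sham, 3.52 at day 14 and 0.721 at day 28, and the start at 55598385 held 2.24 FPKM at day 28 and at most 0.167 in the other libraries. Inside the span the log2 ratio passed the threshold at day 3 (1.25), day 7 (1.14) and day 14 (1.46), where the value over all events gave 0.68, 0.73 and 0.77.

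**Figure D3:**
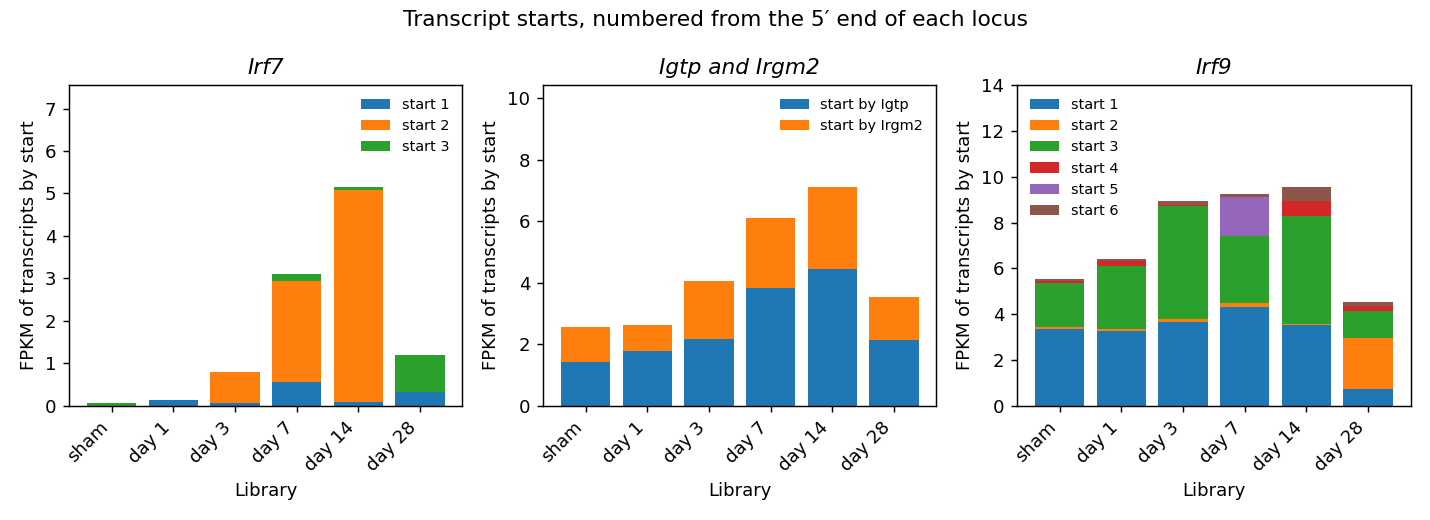
FPKM of transcripts by their start (stacked colours, numbered from the 5′ end of the locus) in each library for Irf7, for the shared locus of Igtp and Irgm2, and for Irf9. The start of Irf7 at 141266421 appears at day 3, day 7 and day 14 only. Both starts of the Igtp and Irgm2 locus are highest at day 14, and the first 2 starts of Irf9 lie before the annotated gene.

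Of the ISG15 pathway, Usp18, the protease that removes ISG15 from proteins and restrains the type I receptor, was higher at day 3, day 7 and day 14. Its level was 0.55 in sham and then 0.993, 1.25, 3.91, 6.14 and 0.65 over the days, a log2 ratio of 3.26 at day 14. Trim25, a ubiquitin ligase that acts on RIG-I, was 1.17 in sham and then 0.55, 2.98, 1.91, 0.813 and 0.797 over the days, and was higher at day 3 alone, with a log2 ratio of 1.28. For Isg15, the ubiquitin-like modifier and one of the most strongly interferon-induced genes known, no event was listed on its own strand in any library. Its single value, 0.608 FPKM at day 14, comes from a transcript on the opposite strand that starts at 156197591 and ends at 156199970 on chromosome 4, while the gene lies on the minus strand at chr4:156199424-156200818. Thus the tables hold no measurement of Isg15 itself, whose promoter with 3 matches is printed above.

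The antiviral effectors were the largest group. Of 12 genes 10 had a value, and 2, 2, 7, 8 and 0 of the 8, 7, 9, 10 and 7 compared were higher over the days. Bst2, known as tetherin, which holds budding virus particles at the cell surface, was 3.1 in sham and then 4.55, 10.6, 21, 24.7 and 4.06 over the days. The level at day 14 was 7.98 times that in sham, a log2 ratio of 2.96, from 1 start and 1 end listed in every library. Slfn2, a Schlafen family protein, was 0.826 in sham and then 2.91, 2.89, 4.36, 5.16 and 1.09 over the days, and was higher from day 1 (1.70) to day 14 (2.51).

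The Ifit genes, whose products bind viral RNA, lie together on chromosome 19 from the start of Ifit2 at 34550694 to the end of Ifit1 at 34650009. Ifit3 was 4.71 in sham and then 6.16, 7.21, 15.2, 17.9 and 6.12 over the days, and its near copy Ifit3b was 2.25 in sham and then 2.75, 2.6, 6.84, 6.58 and 2.19 over the days. Their log2 ratios were close, 1.67 and 1.56 at day 7 and 1.91 and 1.50 at day 14. Because the 2 genes are near copies, the division of reads between them is uncertain. Ifit1 was 0.872 in sham and then 1.09, 1.6, 4.35, 4.61 and 1.19 over the days, a log2 ratio of 2.28 at day 14. Ifit2 was 2.58 in sham and then 1.87, 3.6, 4.39, 3.31 and 2.52 over the days, and did not reach the threshold at any day. Its start at the promoter, 34550694, was listed in all libraries except day 14.

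Cmpk2, a mitochondrial nucleotide kinase, and Rsad2, or viperin, which makes a chain-terminating nucleotide, are neighbours on chromosome 12. Their levels differed in kind. Cmpk2 was 6.6 in sham and then 5.6, 6.23, 7.76, 7.06 and 6.34 over the days, with no log2 ratio over 0.23, whereas Rsad2 was not listed in sham and then had 0.432, none, 1.14, 1.41 and none over the days. Mx1, a dynamin-like GTPase whose allele in C57BL/6 mice is known to be defective, was not listed in sham and then had none, 0.494, 0.488, 1.31 and none over the days. Mx2, annotated as a polymorphic pseudogene in this reference, was 0.508 in sham and then 1.28, 0.862, 1.26, 2.01 and 0.222 over the days. Its level at day 14 is that of its end, and from the start sum alone the log2 ratio was -0.87, the opposite direction. Ifitm3 and Samd9l had no value.

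**Figure D4:**
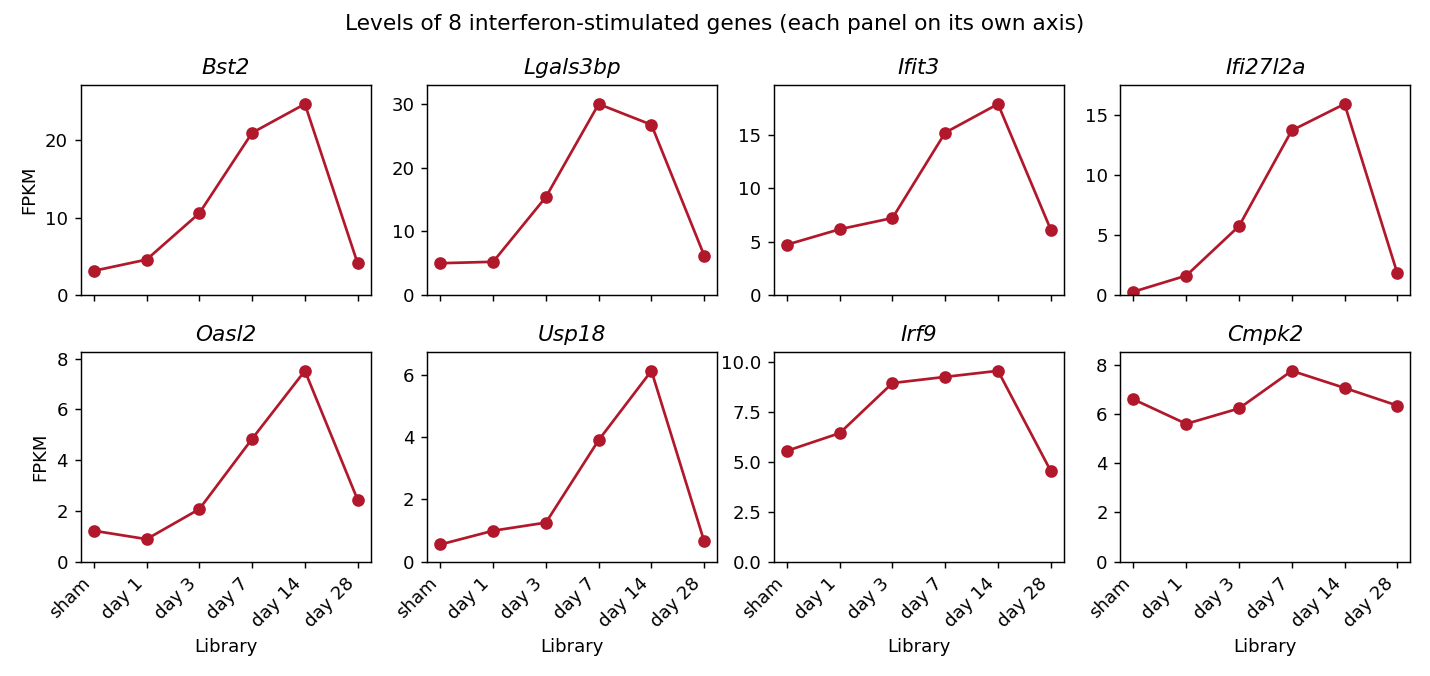
FPKM of 8 of the genes (panels, each with its own vertical axis from 0) in the 6 libraries. Bst2, Ifit3, Ifi27l2a, Oasl2 and Usp18 are highest at day 14 and Lgals3bp at day 7 (30.1 FPKM), Irf9 is called at no day, and Cmpk2 lies between 5.6 and 7.76 FPKM throughout.

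Interferon-inducible GTPases act on the vacuoles and membranes of intracellular pathogens. In this group 7 of 9 genes had a value, and 1, 5, 6, 6 and 2 of the 3, 6, 6, 6 and 4 compared were higher over the days. Gbp2 was 0.662 in sham and then 1.81, 2.57, 4.03, 5.63 and 1.64 over the days, higher at every day and by a log2 ratio of 2.91 at day 14. Gbp3 was 1.23 in sham and then 1.77, 3.49, 4.36, 2.73 and 0.96 over the days, with its highest level at day 7, and Gbp6 was 0.508 in sham and then none, 1.13, 2.62, 2.04 and 0.447 over the days. Gbp3 at day 14 had a log2 ratio of 1.09, which was 0.995 after median scaling and 0.88 after the length trend was removed. Gbp5 was 0.474 in sham and then 0.519, 0.799, 0.52, 1.19 and 0.427 over the days, and passed the threshold at day 14 alone. With a pseudocount of 1 its log2 ratio at day 14 was 0.57, below the threshold. Guanylate-binding genes are near copies in clusters, so their single values are uncertain.

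The immunity-related GTPases differed in their courses. Irgm1 was not listed in sham and then had none, 2.04, 1.41, 1.9 and 1.05 over the days. Iigp1 was 0.111 in sham and then 0.663, 1.06, 1.71, none and 0.579 over the days, with a log2 ratio of 3.10 at day 7. The value under Irgm2 was 2.56 in sham and then 2.62, 4.06, 6.11, 7.1 and 3.55 over the days, but it holds 2 genes. One of its 2 starts, at 58199618 on chromosome 11, lies 62 bases from the RefSeq start of Igtp, the other, at 58215008, 31 bases from that of Irgm2, and the annotated span of Irgm2 (chr11:58199618-58222782) covers most of Igtp. The start by Igtp had 1.43 FPKM in sham and then 1.77, 2.18, 3.81, 4.46 and 2.14 over the days. The start by Irgm2 had 1.13 FPKM in sham and then 0.852, 1.89, 2.3, 2.64 and 1.41 over the days. Both starts, whose promoters are printed above, were thus highest at day 14, and the one by Igtp was the more abundant in every library.

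Of the PARP and ubiquitin ligase genes, 3 of 4 had a value, and all 3 were higher at day 7 and at day 14. Parp9, which works with the ligase Dtx3l, was 1.02 in sham and then 0.616, 1.76, 2.84, 3.46 and 1.53 over the days, a log2 ratio of 1.66 at day 14. Its start sum alone gave -1.17 at day 14, since the main start was not listed there, while its end was listed at 3.46 FPKM. Parp14, an ADP-ribosyltransferase, was 0.581 in sham and then 0.61, 0.77, 1.39, 2.33 and 0.601 over the days. Trim30a, a tripartite-motif protein that restrains signalling by Toll-like receptors, was not listed in sham and then had none, 0.426, 2.12, 1.14 and 0.763 over the days. Dtx3l had no value under its own identifier.

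The largest log2 ratio at day 14 among genes listed in sham was in the group of other interferon-induced genes. Of 7 such genes 5, 6, 6, 6 and 5 could be compared over the days, and 2, 6, 6, 6 and 1 were higher. The medians were 1.96 at day 7 and 2.42 at day 14. Ifi27l2a, a small hydrophobic protein of unclear function, was 0.254 in sham and then 1.6, 5.74, 13.7, 15.9 and 1.8 over the days. Its log2 ratio was 2.26 at day 1 and 5.29 at day 7, and the ratio of 5.50 at day 14 was the largest of the 30 genes compared there and listed in both libraries. This ranking holds with the pseudocount of 0.1. Without a pseudocount the day 14 level was 76.8 times sham for Irf7 and 62.8 times for Ifi27l2a. With a transcript of 463 bases Ifi27l2a is also the shortest of the 44 genes, and both day 1 and day 14 are the libraries in which short transcripts read higher. Lgals3bp, a secreted glycoprotein that binds galectin-3, was 4.97 in sham and then 5.2, 15.4, 30.1, 26.8 and 6.18 over the days, the highest level reached by any of the genes. Xaf1, which binds the apoptosis inhibitor XIAP, was 1.41 in sham and then 2.83, 3.1, 3.99, 7.95 and 2.44 over the days. Rtp4, a chaperone of membrane receptors, was 0.841 in sham and then 1.81, 2.02, 3.59, 7.21 and 1.78 over the days, and Ifi35 was 0.884 in sham and then 1.4, 2.52, 2.76, 4.99 and 1.08 over the days. These 3 genes were 0.83 to 0.98 log2 units above their day 7 level at day 14. For Ifi35 the day 14 level is that of its start, while its end held 3.69 FPKM at day 14 against 2.76 at day 7. For Rtp4 the day 14 level is that of its ends, and from its start sum alone the log2 ratio to sham at day 14 was 1.04. Its main start at day 7, with 2.31 FPKM, was not listed at day 14, where the 1 listed start held 1.07. From starts alone Rtp4 was therefore lower at day 14 than at day 7, the opposite direction. Sp100, a nuclear body protein, was 0.415 in sham and then 0.497, 1.51, 1.91, 1.61 and 0.311 over the days. Ifi44 was listed at day 14 alone, at 0.511 FPKM.

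Further genes of the pathway were followed in a list of 122 genes outside the 50, of which 80 had a value. None of the 18 interferon genes in it, neither Ifnb1 nor any Ifna gene nor Ifng nor the lambda interferons, was listed in any library (0 of 18). Because events at 0 are left out, this says that no transcript of them was assembled, and gives no upper limit. Of the 6 receptor genes 4 had a value and Ifnar2 and Ifnlr1 did not. Ifnar1 was 8.43 in sham and then 7.5, 12.2, 12, 8.48 and 8.76 over the days, Ifngr1 was 6.99 in sham and then 7.86, 12.1, 12.1, 13.2 and 8.93 over the days and Ifngr2 was 10.9 in sham and then 10.4, 12.8, 13.1, 13 and 9.86 over the days, with no log2 ratio to sham over 0.90. Il10rb, shared by the receptors of interleukin-10 and lambda interferon, was 7.6 in sham and then 9.05, 21.9, 17.8, 10.8 and 9.37 over the days and higher at day 3 and day 7. Inside its span it was 2.81 in sham and then 3.52, 7.96, 9.17, 6.43 and 3.71 over the days, which also passes the threshold at day 14, with a log2 ratio of 1.17 against 0.50 over all events.

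Of the kinases that act at these receptors, Tyk2 was 1.89 in sham and then 2.14, 3.34, 3.19, 6.06 and 2.23 over the days, higher at day 14 (1.63). Stat3, best known as the factor of interleukin-6 signals, was highest at day 1, with 6.95 in sham and then 16.7, 13.9, 7.21, 9.39 and 5.5 over the days, a log2 ratio of 1.25 at day 1. Jak1 was 24.6 in sham and then 23.8, 23.6, 24.9, 16.8 and 22.2 over the days, and Jak2 was 5.85 in sham and then 7.05, 7.34, 8.03, 5.02 and 7.75 over the days, both below the threshold at every day.

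Upstream of the interferon genes, 12 of 14 sensing genes had a value. Over the days 1, 6, 5, 1 and 1 of them were higher, so more of this group were called at day 3 and day 7 than at day 14. The 1 at day 28 was Aim2, with a log2 ratio of 1.16, or 0.85 inside its span. Tlr7, an endosomal RNA receptor, was 0.583 in sham and then 0.361, 2.24, 2.59, 1.14 and 0.5 over the days, and Tlr9, the DNA receptor, was 0.414 in sham and then none, 1.05, 1.07, 0.395 and 0.2 over the days. Aim2, an inflammasome DNA sensor, was 0.738 in sham and then 0.805, 2.2, 2.45, 1.34 and 1.78 over the days, and Myd88, the adaptor of most Toll-like receptors, was 1.9 in sham and then 4.02, 4.54, 4.66, 3.95 and 1.68 over the days. Tmem173, which encodes STING, was 1.72 in sham and then 0.921, 3.95, 3.45, 3.32 and 1.58 over the days. Tlr3 was 3.03 in sham and then 1.88, 4.47, 4.24, none and 3.12 over the days, and was the 1 gene of the group called lower, at day 14, where it was not listed. Irf3 was 6.58 in sham and then 9.1, 10.7, 8.47, 11.6 and 7.74 over the days, and Irf5 was 1.89 in sham and then 1.58, 3.3, 3.92, 3.06 and 1.11 over the days. The kinase Tbk1 was 10.9 in sham and then 11.5, 10.9, 11.2, 10.4 and 12.7 over the days, and Mavs was 2.38 in sham and then 2.57, 2.96, 3.23, 2.32 and 1.15 over the days, neither called at any day. Ikbke was 0.565 in sham and then none, 1.25, 0.747, 1.1 and none over the days, and Cgas was not listed in sham and then had 0.402, 0.371, 0.573, none and none over the days. Of the 9 negative regulators 6 had a value and none was called at any day (0); Socs1, Socs3 and Trex1 had none. Adar, the RNA-editing enzyme, was 20.1 in sham and then 19.7, 19, 20.9, 18.2 and 21.6 over the days, Samhd1 was 2.25 in sham and then 2.28, 3.94, 2.87, 3.14 and 2.34 over the days, and Irf2 was 6.55 in sham and then 5.79, 7.87, 6.39, 8.85 and 6.84 over the days. Pias1 was 9.41 in sham and then 5.88, 9.52, 7.65, 7.12 and 9.96 over the days, Ptpn2 was 4.64 in sham and then 6.12, 5.56, 5.25, 5.92 and 7.92 over the days, and Nlrc5 was not listed in sham and then had 0.477, 0.516, 0.0776, none and 0.0259 over the days.

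Interferon-induced chemokines were highest at day 14. Cxcl10 was not listed in sham and then had 2.21, 1.17, 3.42, 8.33 and 0.391 over the days and was called higher from day 1 to day 14. Ccl5 was not listed in sham and then had 0.528, 0.62, 1.38, 9.12 and 0.545 over the days and was called higher at day 7 and day 14. From day 7 to day 14 they differed by 1.26 and 2.64 log2 units. Cxcl9 was listed at day 14 alone, at 0.455 FPKM, and Cxcl11 had no value.

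The list also has 67 further interferon-induced genes, 51 with a value. Over the days 27, 33, 37, 37 and 24 of them could be compared. Of those, 4, 12, 18, 19 and 1 were higher than sham, and 2, 0, 0, 1 and 1 lower. Of all genes compared, 5.11%, 8.54%, 8.53%, 8.97% and 3.68% were higher, and 4.48%, 2.53%, 2.12%, 6.92% and 2.79% lower. The median log2 ratio of the 51 further genes with a value was 1.05 at day 7 and 1.19 at day 14. In the promoter windows, 25 of 54 of these genes (46.3%) held the response element. The most abundant of them was B2m, the light chain of MHC class I, with 71.1 in sham and then 91.6, 155, 239, 308 and 91.6 over the days. The next were Ly6e, with 69.7 in sham and then 61.4, 63.1, 75.7, 91.6 and 61.2 over the days, and Shisa5, with 25.3 in sham and then 37.5, 41.4, 40.1, 45.9 and 24.9 over the days, neither of which was called at any day. Ly6a was 9.64 in sham and then 16.4, 20.1, 12.9, 25.3 and 12.1 over the days and Lgals9 was 2.66 in sham and then 3.94, 9.48, 13.9, 11.9 and 2.52 over the days, with log2 ratios at day 14 of 1.38 and 2.12. The other 5 of the 10 most abundant, Trafd1, Psmb10, Ogfr, Nampt and Daxx, had log2 ratios at day 14 of 0.44, 0.12, -0.10, -0.19 and 0.09, and none was called at any day.

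The label of the samples was checked by cell type markers. Of 6 markers listed for cortical excitatory neurons 5 had a value and Neurod6 had none. Their summed FPKM was 1122 in sham and then 1095, 828, 827, 756 and 977 over the days, with Snap25 the most abundant. Without Snap25 the sum was 416 in sham and then 424, 333, 316, 270 and 348 over the days. Snap25 and Rbfox3 are genes of neurons in general, so their levels do not tell cortex from other brain regions. Hypothalamic neuropeptide genes, which cortex should lack, were not listed in sham, and 3 of 4 were listed after stroke, with a summed FPKM of 54.3, 10.01, 33.3, 20.4 and 4.49 over the days. Pmch was the most abundant of them at day 1 and day 3, and Avp at day 7, day 14 and day 28. These genes mark another brain region, and their part in the values of the other genes was not tested. Oligodendrocyte markers (4 of 4, most abundant Mbp) summed to 1546 in sham and then 2018, 1526, 1820.1, 1769 and 1418 over the days. Astrocyte markers (5 of 5) summed to 598 in sham and then 748, 1201, 956, 969 and 658 over the days. The most abundant of them was Aldoc in sham, at day 14 and at day 28, and Gfap in the other libraries. Without Gfap the astrocyte sum was 512 in sham and then 418, 504, 533, 589 and 509 over the days, so its increase rests mainly on that gene.

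Markers of monocytes and macrophages and of microglia were both higher in sum at day 3, day 7 and day 14 than in sham. The 6 monocyte and macrophage markers, 5 with a value and Cd14 with none, summed to 8.03 FPKM in sham and then 12.5, 145, 366, 203 and 29.9 over the days. Lyz2 was the most abundant, and without it the sum was 1.3 in sham and then 1.46, 8.45, 9.34, 7.47 and 3.71 over the days. Ccr2, a defining marker of the group, was at most 0.199 FPKM. The 7 microglia markers, 6 with a value, most abundant Csf1r, summed to 53.4 in sham and then 39.1, 93.9, 82.4, 79.02 and 52.1 over the days, the highest at day 3. Without Csf1r the microglia sum was 29.5 in sham and then 17.5, 43.5, 30.1, 40.2 and 28.7 over the days. Single microglia markers differed, as P2ry12 was 18 in sham and then 7.01, 21.7, 17.7, 13.3 and 15.6 over the days and Siglech was 7.01 in sham and then 5.39, 10.3, 4.22, 9.91 and 6.65 over the days. Of their defining genes Itgam had no value, Cx3cr1 was listed at day 1 and day 14 and Tmem119 at day 7 and day 28. The part of monocytes, macrophages and microglia in the levels of the interferon-stimulated genes was not tested. Endothelial markers (5 of 5, most abundant Ly6c1) summed to 19.9 in sham and then 29.1, 46, 28.9, 44.3 and 30.6 over the days. Without Ly6c1 the sum was 8.33 in sham and then 10.2, 16.6, 8.82, 7.04 and 7.7 over the days. At day 14 this sum counts Flt1, which was 2.84 in sham and not listed there, as 0. Pecam1 was 3.33 in sham and 4.02 at day 14, and Cdh5 was 2.16 in sham and 3.02 at day 14.

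The lymphocyte markers that were listed were low, no level can be given for the others, and neutrophil markers were highest at day 1. Of the 9 T and NK cell markers 5 had a value and Cd3g, Cd8a, Cd8b1 and Gzmb had none. Cd4, the most abundant, was 2.56 in sham and then 1.83, 1.49, 2.78, 4.43 and 3.95 over the days, and without it the group summed to 0 in sham, 0.344 at day 7, 1.6 at day 14 and 0.268 at day 28. Of 4 B and plasma cell markers 3 had a value, most abundant Cd79a, with a sum of at most 1.31 FPKM at day 3, and Ms4a1 had none. Neutrophil markers (5 of 6 with a value, Ly6g with none, highest value S100a9) summed to 0.0729 in sham and then 18.5, 1.59, 0.815, 9.41 and 0 over the days.

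**Figure D5:**
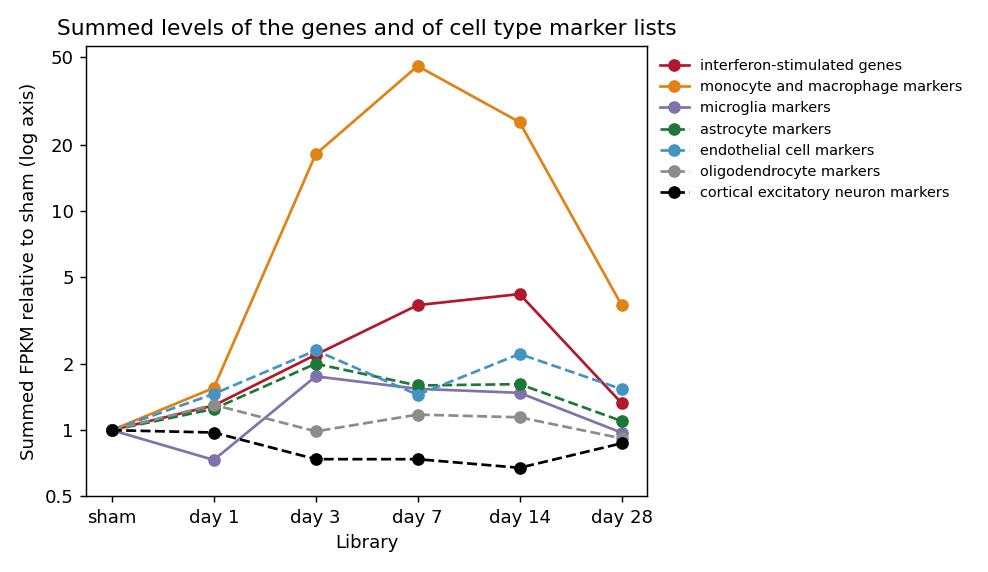
Summed FPKM of the interferon-stimulated genes and of 6 lists of cell type markers in each library, relative to the sham library (log axis). The interferon-stimulated genes reach 4.17 times the sham level at day 14 and the monocyte and macrophage markers 45.6 times at day 7. The markers labelled cortical excitatory neuron, which include the general neuron genes Snap25 and Rbfox3, are at 0.674 times at day 14.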

How the data were processed

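The authors deposited, for each library, FPKM of transcript starts, ends and splicing events with locus and Ensembl identifiers, without events at 0. The submitters' processing notes name Trimmomatic 0.30, HISAT2 2.0.1, HTSeq 0.6.1 and the build mm10; the tool that assembled loci and listed events is not given in the sources used here. The design assumed 1 value per gene, so a gene value was built as the largest of the summed starts, summed ends and any single event. Symbols were matched through GENCODE M21; of 15441 identifiers, 15429 matched, and 93.4% of event rows overlapped their gene's span on its strand. Ratios used a pseudocount of 0.1 FPKM, a filter of 1 FPKM in 1 of the 2 libraries and a threshold of 1. Groups of 1 library allow no test, so no p-value is given. The 50 genes, the pathway list and the marker lists were chosen with earlier results of these data known, and some genes of the latter lists are not reported here. All 50 genes could be named, in full where a library reached 5 FPKM or a log2 ratio reached 2. From the pathway list, every ligand, receptor, kinase, STAT, upstream and negative regulator with a value, the chemokines, and the 10 further genes with the highest FPKM were named. Promoters came from RefSeq. Alternatives covered the pseudocount, the filter, the gene value, the span, library scaling, genes listed in both libraries and transcript length. The gene values, calls and length correction were tested on simulated data. There every gene had an end that held its whole level, so starts or ends missing from a library were not simulated. Python 3.11.15, numpy 2.4.6, pandas 2.3.3 and matplotlib 3.10.9 were used.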

Additional observations from a re-analysis of the deposited data

Results flagged for a closer look

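Some signals lie over the annotated span of a gene of the list but under another identifier, so they are not counted as values of that gene, and each was above its level in sham in at least 1 library after stroke. Over Gbp7, events listed under the identifier of Gm43802 had 0.559 FPKM in sham and then 0.816, 1.25, 1.43, 0.354 and 0.966 over the days, so at day 14 they were below sham. Over Dtx3l, events listed under Gm15564 had 0.65 FPKM in sham and then 0.852, 0.889, 1.46, 1.4 and 0.787 over the days. Over Igtp, events listed under Irgm2 reached 4.46 FPKM at day 14 against 1.43 in sham, and enter the value of Irgm2. Of another kind is the transcript under the identifier of Isg15 itself, on the opposite strand and partly outside its span, which had 0.608 FPKM at day 14, was not listed in sham and makes Isg15 1 of the 44 genes with a value. With 1 library per group, none of these differences has a replicate check.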

How the results depend on the processing

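Under the 8 alternatives set for the comparisons, 25 to 34 genes were higher than sham at day 7 and 24 to 36 at day 14, within 1.5 times of the numbers given. With a pseudocount of 1, 2 genes were higher at day 1, 10 at day 3 and 1 at day 14 against day 7, and the medians were 1.12 at day 7 and 1.16 at day 14. Without a filter, 11 genes were higher at day 1 and 9 at day 28, 6 were higher at day 14 than at day 7, and 3, 1, 1, 2 and 1 genes were lower than sham over the 5 days. From start sums alone, 4 genes were lower than sham at day 14, 1 at day 28, and 11 at day 14 against day 7, with 1 gene highest at day 1 and 5 at day 3. From end sums alone, 2 genes were highest in sham and 0 at day 28. Among genes listed in both libraries, 1 was lower at day 14 than at day 7, because Ifih1 and Iigp1 were not listed at day 14. The cause of the other moves was not tested. With the length trend removed, 20 genes were highest at day 7 and 20 at day 14, and the median of day 14 against day 7 was -0.05. The 33 genes higher at day 14 were read under the 6 alternatives other than the filter and listing in both libraries. Of the 191 values that could be computed, 177 kept direction and threshold and 12 fell under the threshold or the filter. The other 2 reversed, Mx2 (-0.87) and Parp9 (-1.17), both from start sums. Of the 177, 33 came from events inside the span alone, which left the ratios of these genes unchanged and so could not disagree. Among the 12, the 2 from end sums, Oasl2 and Stat2, rest on listed ends that hold little of the level. Median scaling moved the median of genes listed in sham and day 14 from 0.11 to 0.02. Chosen after the values were seen, leaving out the day 14 library put 34 genes highest at day 7, 5 at day 3 and 1 each in sham and at day 1, and the day 28 library in place of sham gave 1 gene lower at day 14. No paired analysis was possible because each group is 1 library. No floor can be set for genes not listed, because depth is known only as a mean.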
